A study of Sus scrofa with 9 samples.

Results

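The genes described are 9 co-stimulatory and checkpoint molecules that antigen-presenting cells and T cells use to start or to restrain a T cell response. They are CD80, CD86, CD83, CD40, CD274 and PDCD1LG2 on the antigen-presenting side, and CD28, CTLA4 and ICOS on the T cell side. Members were read from the expression table by gene name, and the list of names was drawn up with earlier results of these data known. Each name has 1 entry in the expression table, so the set is 9 of 21357 genes.

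A T cell that recognises antigen needs a second signal, given when CD80 or CD86 on the presenting cell binds CD28. CTLA4 binds the same ligands more tightly than CD28 and restrains the cell, ICOS is a CD28 relative that appears after activation, and the PD-1 ligands CD274 (PD-L1) and PDCD1LG2 (PD-L2) deliver another inhibitory signal. CD40 is the receptor through which helper T cells license presenting cells, and CD83 is a surface marker of mature dendritic cells. In atherosclerosis these molecules are studied because macrophages, dendritic cells and T cells gather in the arterial wall.

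Tibetan minipigs gave RNA from the lower end of the abdominal aorta, which was sequenced in 9 libraries of 3 groups, 1 library a pig and 3 pigs a group. The NC group (normal control) ate a normal diet for 24 weeks. The H24 group, labelled atherosclerosis, ate a high-fat diet for 24 weeks, which the study's methods describe as basal feed with shortening oil, cholesterol and egg yolk powder. The H8 group, labelled hypercholesterolemia, ate a high-fat diet for 8 weeks and is known from the sample labels alone. The study describes its NC and atherosclerosis pigs as males bought at 3 to 4 months of age, and the sex and age of the H8 pigs are not given in the sources used here. No genetic change or drug is given for any group, the diet is the only treatment, and the atherosclerosis is that of the whole diet-fed animal. NC matches H24 in diet weeks but not H8. In H8/NC the high-fat diet therefore cannot be told apart from the number of diet weeks or the age of the pigs. Both groups of H24/H8 ate a high-fat diet. There its length cannot be told apart from the age of the pigs or any difference in feed. The 3 comparisons share libraries in pairs: H24/NC and H8/NC have the same 3 controls, and H24/H8 uses the other libraries of both.

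Total counts were 44094263 in H24 replicate 2 and between 61085496 and 75787978 in the other 8 libraries, and a floor of 3 counts was 0.0396 to 0.068 CPM. Across genes, libraries of a group correlated with r of 0.96 to 0.964 in NC and 0.941 to 0.958 in H8. H24 replicate 3 stood apart, with r of 0.85 and 0.887 to the other H24 libraries, which had 0.937 with each other. It had 2050 FPKM summed over 11 macrophage markers against 319 and 198 in H24 replicates 1 and 2, and 1700 FPKM summed over 6 smooth muscle markers against 7810 and 11600. ACTA2, the smooth muscle actin that marks the vessel wall, was at 545 FPKM there and at 1910 to 3260 FPKM in the other 8 libraries. The extraction label speaks of an adipose type, and the fat cell gene ADIPOQ ranged from 0.0705 to 14.6 FPKM. In whole tissue, more cells of a type and more RNA per cell cannot be told apart.

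A gene was called when its log2 fold change passed 1 in size with an unadjusted p under 0.05 in edgeR, which are the study's thresholds, and a second rule asked the same of the Benjamini-Hochberg adjusted p. By the first rule 5 of the 9 genes were higher in H24/NC (CD86, CD83, PDCD1LG2, CTLA4 and ICOS), where 9.95% of all tested genes were called higher. In H8/NC, 3 of the 6 genes tested were higher (CD86, CD83 and PDCD1LG2), beside 5.11% of all tested genes. In H24/H8, 3 of 9 were higher (CD86, PDCD1LG2 and ICOS), beside 7.22%. Without H24 replicate 3 the count was 3 in H24/NC, where CTLA4 and ICOS no longer reached the minimum level (beside 6.49% of all tested genes), and 0 in H24/H8 (beside 3.75%). It was 1 in H24/H8 without H8 replicate 2 (beside 3.73%) or H8 replicate 3 (4.18%), and 6 without H24 replicate 2 (9.56%). No member was called lower in any comparison. CD80, CD40, CD274 and CD28 were not called in any of them.

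None of the 9 passed the adjusted rule with edgeR, under which 0% of all tested genes were called higher in H24/NC, 0.014% in H8/NC and 0.0135% in H24/H8. At an unadjusted p under 0.05 alone, edgeR gave 6, 3 and 4 members in H24/NC, H8/NC and H24/H8, beside 13.9%, 14.8% and 13.7% of all tested genes in either direction. DESeq2 called 5, 3 and 1 higher by the adjusted rule, beside 5.93%, 3.1% and 3.02% of all tested genes. Without H24 replicate 3, 3 members passed edgeR's adjusted rule in H24/NC (CD86, CD83 and PDCD1LG2), beside 1.99% of all genes tested in that setting. The median log2 fold change of the tested members was 3.48 in H24/NC, 1.08 in H8/NC and 1.61 in H24/H8, beside 0.01, 0.01 and 0.04 for all tested genes. The first stays at 3.48 with CTLA4 at its bound. These medians do not rest on the same genes. Over the 6 presenting-side genes, tested in all 3 comparisons, the medians were 2.18 in H24/NC, 1.08 in H8/NC and 0.86 in H24/H8. All 9 were tested in the H24 comparisons, but CD28, CTLA4 and ICOS reached the minimum of 0.1 mean FPKM there through the H24 libraries and were not tested in H8/NC, so the counts and medians over tested members are a description. In the lists of other genes below, those tested in H24/NC but not in H8/NC reached it in the same way, apart from the adipocyte marker LEP. Counts and medians over those lists are a description too.

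By FPKM, 5 members did not overlap between NC and H24 (CD86, CD83, CD40, PDCD1LG2 and ICOS), beside 12.8% of tested genes that lay higher without overlap. CD86, CD83 and PDCD1LG2 did not overlap between NC and H8, beside 6.91%. CD86, CD40 and ICOS did not overlap between H8 and H24, beside 15.5%. Without H24 replicate 2 the count was 8 in H24/NC and 7 in H24/H8, beside 23.2% and 29.3% of tested genes, and without H8 replicate 1 it was 5 in H24/H8, beside 21.3%. With 3 libraries against 3 the smallest exact two-sided permutation p is 0.1, so no single gene can reach 0.05 by that test.

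**Figure D1:**
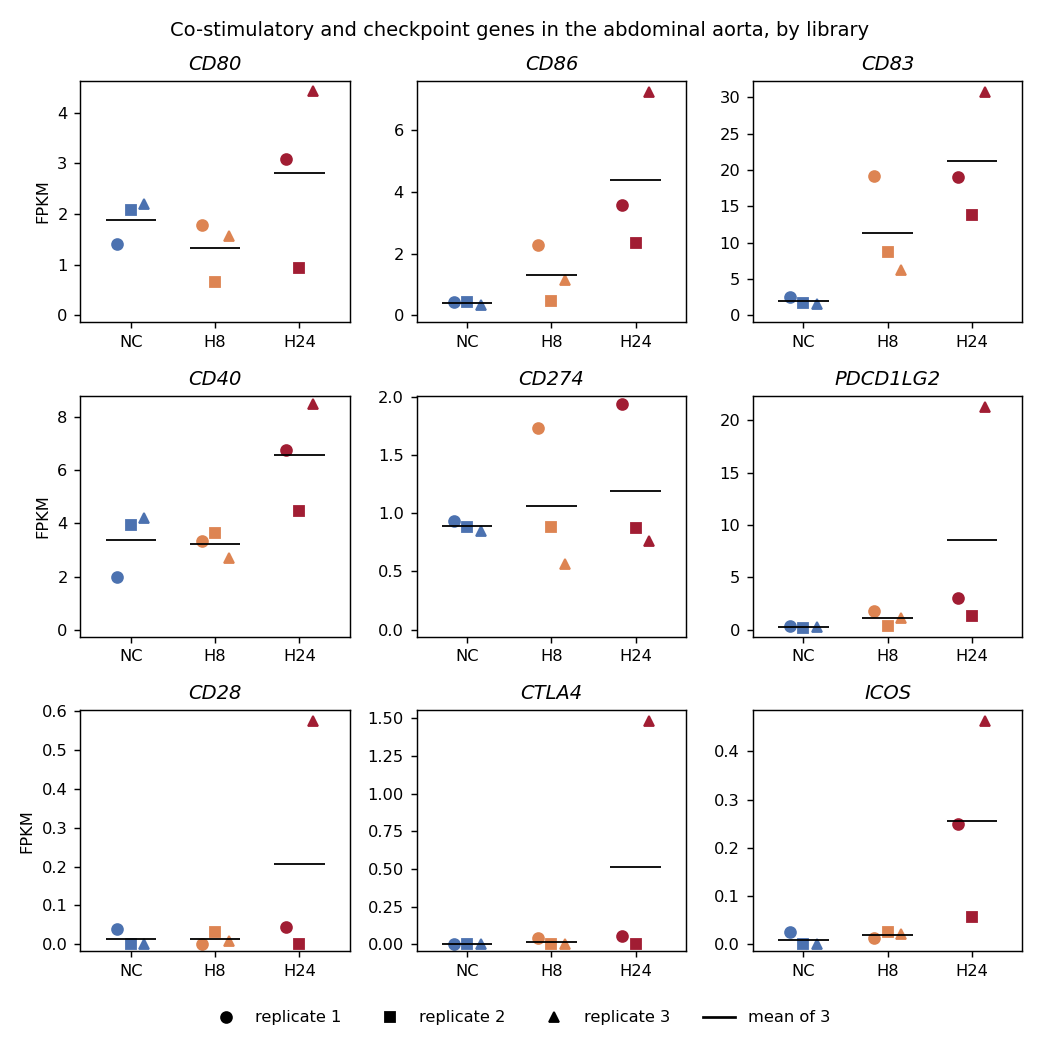
Expression of the 9 genes in FPKM (vertical axis, linear and starting near 0, with its own scale in each panel) in NC, H8 and H24; each point is 1 library, its shape gives the replicate number, and the line is the mean of 3. CD83 in H8 lies between 6.28 and 19.2 FPKM, above all controls, while CD28 and CTLA4 in H24 are carried by replicate 3.

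Of the B7 ligands, CD86 was called higher in all 3 comparisons and CD80 in none. CD86 (ENSSSCG00000011877) lies on chromosome 13 from 138427532 to 138504274 of Sscrofa11.1, on the minus strand, and CD80 (ENSSSCG00000011899) on the plus strand of the same chromosome from 140693432 to 140728982, 2190 kb away. CD86 measured 0.431, 0.429 and 0.344 FPKM in NC replicates 1 to 3. It measured 2.27, 0.450 and 1.14 FPKM in H8 and 3.58, 2.35 and 7.26 FPKM in H24. The 3 groups formed steps without overlap, but the lowest H8 library lay 0.450 against a highest control of 0.431, and the lowest H24 library 2.35 against a highest H8 library of 2.27. Group means were 0.402 ± 0.0497, 1.29 ± 0.922 and 4.40 ± 2.55 FPKM (SD, n = 3).

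CD86 was 10.7-fold higher in H24/NC (log2 fold change 3.42, SE 0.48, edgeR adjusted p = 0.129). In H8/NC its log2 fold change was 1.78 (SE 0.53, adjusted p = 0.233), and 1.08 without H8 replicate 1. In H24/H8 it was 1.61 (SE 0.62, adjusted p = 0.343). This last call was lost without H8 replicate 2 (1.22), H8 replicate 3 (1.5), H24 replicate 1 (1.74) or H24 replicate 3 (1.05), and the value was 2.29 without H8 replicate 1.

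CD80, which binds CTLA4 with the higher affinity of the B7 pair, measured 1.40, 2.07 and 2.19 FPKM in NC. It measured 1.78, 0.656 and 1.56 FPKM in H8 and 3.08, 0.934 and 4.44 FPKM in H24. H24 replicate 2 lay below every control and the other H24 libraries above all controls, so the groups overlapped in every comparison. The log2 fold changes of CD80 were 0.55 (SE 0.53, adjusted p = 0.695) in H24/NC, -0.39 (SE 0.37, adjusted p = 0.660) in H8/NC and 0.90 (SE 0.57, adjusted p = 0.496) in H24/H8. Without H24 replicate 2 the last was 1.29 and was called.

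The balance of the B7 ligands was then compared within each library. In NC the log2 ratio of CD80 to CD86 was 1.68, 2.24 and 2.64, so CD80 was the higher of the pair in each control. It was -0.35, 0.53 and 0.46 in H8 and -0.22, -1.32 and -0.71 in H24, where CD86 was the higher in each library. The ratio lay below all controls in all 6 diet-fed libraries, with differences in mean of -2.93 in H24/NC and -1.97 in H8/NC (exact permutation p = 0.1 each, the smallest possible, adjusted p = 0.39 over 39 tests of 13 ratios).

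**Figure D2:**
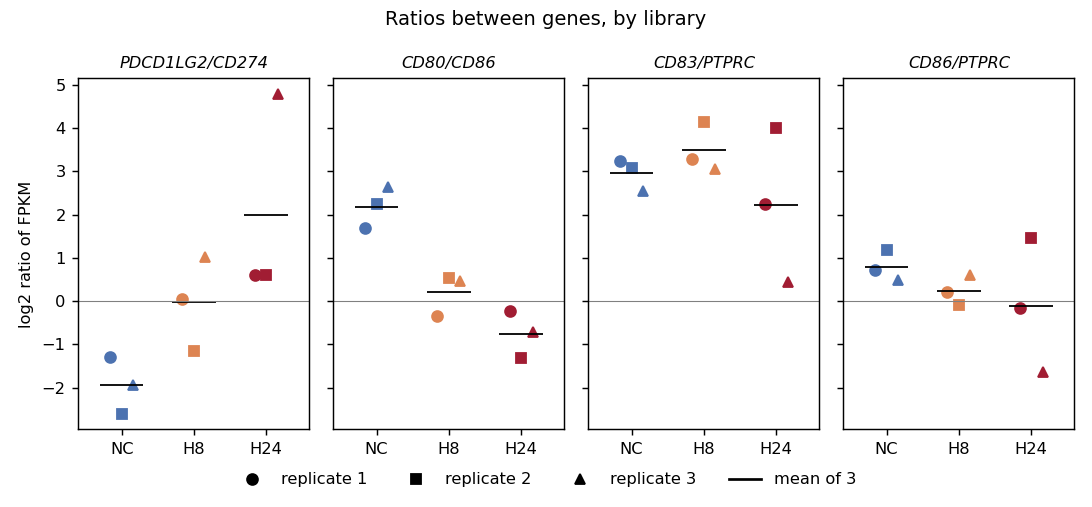
Log2 ratio of FPKM (vertical axis, shared scale) of PDCD1LG2 to CD274, CD80 to CD86, CD83 to PTPRC and CD86 to PTPRC, with 1 point per library, shapes for the replicate number and lines for the mean of 3. The PDCD1LG2/CD274 ratio runs from -2.60 to -1.30 in NC and from 0.60 to 4.78 in H24, while CD83/PTPRC overlaps between the groups.

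CD83 had the smallest p of the 9 genes in both comparisons with NC. The gene (ENSSSCG00000021576) lies on chromosome 7 from 10359211 to 10387002, plus strand. It measured 2.54, 1.63 and 1.46 FPKM in NC, and 19.2, 8.65 and 6.28 FPKM in H8. In H24 it measured 19.0, 13.8 and 30.8 FPKM. All diet-fed libraries lay above all controls, by at least the step from 2.54 to 6.28, and H8 overlapped H24. Group means were 1.87 ± 0.579, 11.4 ± 6.90 and 21.2 ± 8.72 FPKM (SD, n = 3).

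CD83 was 11.2-fold higher in H24/NC (log2 fold change 3.48, SE 0.39, edgeR adjusted p = 0.127) and 6.67-fold higher in H8/NC (2.74, SE 0.45, adjusted p = 0.117). The H24/H8 difference was 0.71 (SE 0.47, adjusted p = 0.516) and was not called, except without H8 replicate 1 (1.27). In NC the gene was level with CD80, and in H8 it was the highest of the 9 with no overlap with the next, CD40.

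H8 replicate 2 showed CD83 apart from the other members called in H8/NC. In that library the macrophage markers summed to 34.3 FPKM, within the 26.7 to 36.8 FPKM of the controls, against 186 and 96.6 FPKM in H8 replicates 1 and 3. Its CD86 (0.450 FPKM) and PDCD1LG2 (0.393 FPKM) were close to the highest controls (0.431 and 0.374 FPKM). Its CD83, at 8.65 FPKM, was above H8 replicate 3. TNFAIP3, an inhibitor of NF-kappa B induced through CD40 and related receptors, measured 8.12, 18.9 and 2.78 FPKM in H8 replicates 1 to 3 and was also high there. The part of macrophage number in these values was not tested.

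CD40 (ENSSSCG00000035078) lies on chromosome 17 from 48285722 to 48302502, plus strand, and overlaps TP53RK on the minus strand. Whether the counting used strand is not given in the sources used here, so reads of the overlap cannot be assigned with certainty. CD40 measured 1.98, 3.93 and 4.22 FPKM in NC, and 3.35, 3.63 and 2.69 FPKM in H8. It measured 6.75, 4.48 and 8.49 FPKM in H24, above every other library, though the lowest exceeded the highest control by only the step from 4.22 to 4.48. The log2 fold change in H24/NC was 0.93 (SE 0.38, edgeR adjusted p = 0.344), short of the fold threshold.

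The H24/H8 difference of CD40 was 0.82 (SE 0.30, adjusted p = 0.341 by edgeR) and that of H8/NC 0.08 (SE 0.32, adjusted p = 0.939). CD40 was called in H24/NC without NC replicate 3 (1.10) or H24 replicate 2 (1.13), and in H24/H8 without H24 replicate 2 (1.004) or when scaled by library size only (1.04). In NC it had the highest mean of the 9 genes, 3.38 ± 1.22 FPKM (SD, n = 3), overlapping with CD80.

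Of 8 CD40 signalling genes tested, TNFAIP3 alone was called higher in H24/NC (log2 fold change 1.95, SE 0.61, adjusted p = 0.239), and none was lower. TRAF1, an adaptor of the receptor, had 0.96 (SE 0.33, adjusted p = 0.277) and RELB, a subunit of the noncanonical NF-kappa B pathway, had 0.75 (SE 0.26, adjusted p = 0.277). MAP3K14, the kinase of that pathway, had 0.45 (SE 0.25, adjusted p = 0.490). The list median was 0.32. Also 1 of 8 was called higher in H8/NC and 0 of 8 in H24/H8. The ligand of CD40, CD40LG, named here after its values were seen, was at 0, 0.0843 and 0.0656 FPKM in NC and at 0.422, 0.0718 and 1.01 FPKM in H24 (3.19, SE 1.40, adjusted p = 0.376, not called).

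The PD-1 ligands lie side by side on the minus strand of chromosome 1, PDCD1LG2 (ENSSSCG00000032561) from 216548132 to 216621471 and CD274 (ENSSSCG00000005211) from 216660035 to 216682540, with 38.6 kb between them. PDCD1LG2 was called higher in all 3 comparisons and CD274 in none. PDCD1LG2 measured 0.374, 0.137 and 0.213 FPKM in NC, and 1.81, 0.393 and 1.15 FPKM in H8. It measured 2.98, 1.33 and 21.3 FPKM in H24. All diet-fed libraries were above all controls, H24 replicate 2 lay within the H8 range, and H24 replicate 3 held 83.2% of the summed H24 FPKM.

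The log2 fold change of PDCD1LG2 in H24/NC was 5.14 (SE 1.14, edgeR adjusted p = 0.133), or 35.2-fold. Without H24 replicate 3 it was 3.13 with an adjusted p of 0.0256. In H8/NC it was 2.32 (SE 0.58, adjusted p = 0.205), or 5.01-fold. In H24/H8 it was 2.75 (SE 1.05, adjusted p = 0.342), a call that was lost without H24 replicate 3 (0.79), H8 replicate 2 (2.37) or H8 replicate 3 (2.75).

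CD274 measured 0.934, 0.884 and 0.849 FPKM in NC. It measured 1.73, 0.881 and 0.567 FPKM in H8 and 1.94, 0.873 and 0.763 FPKM in H24. Replicate 1 was the highest of each diet-fed group and the only one above the controls. The log2 fold changes were 0.39 (SE 0.43, adjusted p = 0.741) in H24/NC, 0.39 (SE 0.42, adjusted p = 0.711) in H8/NC and -0.02 (SE 0.56, adjusted p = 0.990) in H24/H8 by edgeR. The direction turned in H24/NC without H24 replicate 1 (-0.12) and in H8/NC without H8 replicate 1 (-0.13).

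The log2 ratio of the neighbours, PDCD1LG2/CD274, was -1.30, -2.60 and -1.95 in NC, 0.06, -1.15 and 1.01 in H8, and 0.61, 0.60 and 4.78 in H24. Every diet-fed library was above every control, by 3.95 in mean for H24/NC and 1.93 for H8/NC (exact permutation p = 0.1 each, adjusted p = 0.39). The H24/NC difference was 2.56 without H24 replicate 3, 4.64 without H24 replicate 1 and 4.65 without H24 replicate 2. In NC, CD274 was the higher of the pair in each library, and in H24 PDCD1LG2 was.

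Their receptor PDCD1 (PD-1) was at 0 in all NC libraries and at 0.0605, 0.0291 and 0.731 FPKM in H24, a call in H24/NC (edgeR adjusted p = 0.206). Of 8 inhibitory signalling genes below PD-1 and CTLA-4, 2 were called higher in H24/NC and none lower, with a median of 0.15. These were INPP5D, a lipid phosphatase of blood cells (log2 fold change 3.79, SE 0.66, adjusted p = 0.132), and PTPN6, the phosphatase SHP-1 (4.34, SE 0.96, adjusted p = 0.133). DGKZ, a kinase that removes the second messenger diacylglycerol, had 1.28 (SE 0.57, adjusted p = 0.387) and PPP2CA, the catalytic subunit of phosphatase PP2A, -0.18 (SE 0.21, adjusted p = 0.756). The count was 2 of 8 in H8/NC and in H24/H8 as well.

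**Figure D3:**
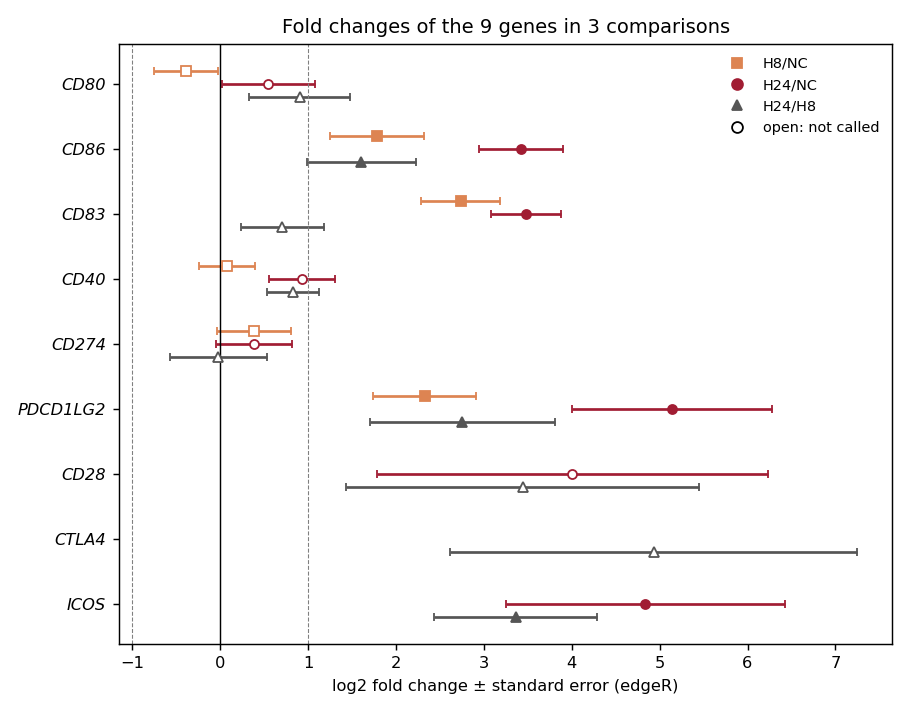
Log2 fold change with its standard error (horizontal axis, edgeR) for each gene in H8/NC, H24/NC and H24/H8; filled points were called at a log2 fold change over 1 and an unadjusted p under 0.05, and dashed lines mark a log2 fold change of 1 in size. CTLA4 in H24/NC is not drawn because its controls were all at 0, and CD28, CTLA4 and ICOS were not tested in H8/NC; PDCD1LG2 has values of 2.32, 5.14 and 2.75 while CD274 stays at 0.39, 0.39 and -0.02.

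The 6 genes of the presenting side were set against PTPRC, the CD45 antigen of all white blood cells. PTPRC itself measured 0.257, 0.184 and 0.243 FPKM in NC, 1.96, 0.480 and 0.747 FPKM in H8, and 4.00, 0.855 and 22.8 FPKM in H24. Its log2 fold change was 5.32 in H24/NC and 2.33 in H8/NC, so any gene of unchanged FPKM falls in its ratio to PTPRC. How many other genes fall in this way was not counted, so such falls are a description and not a trait of these genes. The log2 ratio to PTPRC was lower in every H24 library than in every control for CD80 (difference in mean -3.85), CD40 (-3.20) and CD274 (-3.90), and likewise in H8 (-2.53, -1.94 and -1.83). Each had an exact permutation p of 0.1 and an adjusted p of 0.39. Without H24 replicate 3 the H24/NC differences were -3.11, -2.20 and -2.44, and without H24 replicate 2 those of CD40 and CD274 were -4.10 and -4.89. The ratio overlapped between groups for CD86 (-0.92 in H24/NC), CD83 (-0.73) and PDCD1LG2 (0.05). Without H24 replicate 2 those of CD86 and CD83 were also below all controls in H24/NC, by -1.70 and -1.62 in mean. With TYROBP, an adaptor of myeloid cells tried in place of PTPRC after the values were seen, CD86 too lay below all controls in H24/NC (-4.43, -4.51 and -6.08 against -4.32, -3.53 and -4.06), and in H8/NC CD40 and CD274 overlapped.

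PDCD1LG2 and PTPRC kept a log2 ratio between -0.42 and 0.63 in all 9 libraries, including 0.52, -0.40 and -0.18 in NC and -0.42, 0.63 and -0.10 in H24. With TYROBP the ratio of PDCD1LG2 lay between -5.33 and -4.28. Every H8 library (-4.47, -4.34 and -4.28) was above the highest of NC (-4.52) and of H24 (-4.53). CD83/PTPRC was 2.25 to 4.14 in 8 libraries and 0.44 in H24 replicate 3, and CD86/PTPRC was -0.16 to 1.45 in 8 and -1.65 there. H24 replicate 3 was thus the lowest of the 9 for both genes per PTPRC although it had the highest FPKM of both. No ratio differed without overlap in H24/H8, but 5 did with TYROBP in place of PTPRC and 3 with a pseudocount of 0.1 FPKM.

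All 11 macrophage markers tested were called higher in H24/NC (median 4.72), 5 of 9 in H8/NC (1.70) and 10 of 11 in H24/H8 (2.82). Their sum was 26.7 to 36.8 FPKM in NC, 34.3 to 186 in H8 and 198 to 2050 in H24, with MARCO, named after its values were seen, at 0 in all controls. The sum of 2050 was that of H24 replicate 3, where PDCD1LG2 was 9.88 times its mean of H24 replicates 1 and 2. That fold was 2.45 for CD86, 2.21 for CD80, 1.88 for CD83, 1.51 for CD40 and 0.543 for CD274. TYROBP had a log2 fold change of 4.97 (SE 0.95, adjusted p = 0.132) and C1QB, a complement chain made by macrophages, 4.94 (SE 0.97, adjusted p = 0.132) in H24/NC. Of the dendritic cell markers 6 of 8 were called higher in H24/NC (median 3.68), 1 of 5 in H8/NC (0.97) and 5 of 8 in H24/H8 (2.16), with sums of 4.24 to 5.21 FPKM in NC, 4.70 to 8.52 in H8 and 14.1 to 59.2 in H24. IRF8, a transcription factor of dendritic cells and monocytes, had 4.46 (SE 0.81, adjusted p = 0.132) and XCR1, a chemokine receptor of cross-presenting dendritic cells, 4.73 (SE 1.08, adjusted p = 0.136), with CD1E, named after its values were seen, at 0 in all controls. In both lists, markers tested in H24/NC but not in H8/NC passed the minimum level through the H24 libraries. The part of these cells in the members' values was not tested.

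Of the other lists of cells in the vessel wall, no endothelial marker of 5 and no smooth muscle marker of 6 was called in any comparison. The smooth muscle median was -0.74 in H24/NC, and its sum was 11400 to 13500 FPKM in NC, 9880 to 13300 in H8 and 1700 to 11600 in H24. Every H24 library lay below every control for MYH11 (log2 fold change -1.28, SE 0.73) and SMTN (-1.09, SE 0.71). The other smooth muscle markers overlapped in H24/NC. In H24/H8, CNN1 alone was lower without overlap (-1.29, SE 0.73). The endothelial sum was 54.9 to 143 FPKM in NC and 59.7 to 103 in H24. Adipocyte markers, with 1 higher and 1 lower of 6 in H24/NC, were lower for 4 of 5 in H8/NC (median -2.41) and higher for 5 of 6 in H24/H8 (2.81), and their sum was 91.9 to 177 FPKM in NC, 61.7 to 73.6 in H8 and 61.0 to 110 in H24.

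The T cell receptors CD28, CTLA4 and ICOS lie in a row on the plus strand of chromosome 15. CD28 (ENSSSCG00000028561) runs from 107127600 to 107162919, CTLA4 (ENSSSCG00000016122) follows after 120 kb from 107282927 to 107289103, and ICOS (ENSSSCG00000025042) after another 60.6 kb from 107349655 to 107371277. All 3 were rare: no NC or H8 library exceeded 14 counts of any of them. The largest values were in H24 replicate 3.

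ICOS had 8, 0 and 0 counts in NC, 5, 8 and 8 in H8, and 78, 12 and 132 in H24. In FPKM this was 0.0262, 0 and 0, then 0.0125, 0.0250 and 0.0211, then 0.249, 0.0569 and 0.462. It was the only one of the 3 for which every H24 library lay above every other library. The log2 fold change was 4.84 in H24/NC (SE 1.59, edgeR adjusted p = 0.258) and 3.36 in H24/H8 (SE 0.93, adjusted p = 0.336). Without H24 replicate 3, which held 60.2% of the summed H24 FPKM, and with no filter, both calls held at 4.07 and 2.65, the second with a p just under the threshold. Without NC replicate 1 the remaining controls were at 0 and the call in H24/NC held.

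CTLA4 had 0 counts in all 3 NC libraries, 6, 0 and 0 in H8, and 8, 0 and 188 in H24. H24 replicate 3, at 1.48 FPKM, held 96.2% of the summed H24 FPKM, and H24 replicate 2 did not differ from the controls in having none. CTLA4 was at least 78.7-fold higher in H24/NC when NC was set to a floor of 3 counts over the group (edgeR adjusted p = 0.317). Without H24 replicate 3 the bound was 5-fold on 8 counts, and with no filter the call was lost. It was also lost without NC replicate 1, 2 or 3. In H24/H8 the log2 fold change was 4.93 (SE 2.32, adjusted p = 0.390), not called, and 5.52 without H24 replicate 2, called.

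CD28 had 14, 0 and 0 counts in NC, 0, 13 and 5 in H8, and 17, 0 and 195 in H24. In FPKM H24 replicate 3 had 0.574, or 93.0% of the summed H24 value, and the other 8 libraries had 0 to 0.0435. The groups overlapped, and the log2 fold changes of 4.00 in H24/NC (SE 2.23, edgeR adjusted p = 0.487) and 3.44 in H24/H8 (SE 2.01, adjusted p = 0.460) were not called. In H24 replicate 3 the order by FPKM was CTLA4, CD28 and ICOS, and in H24 replicate 1 it was ICOS, CTLA4 and CD28.

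T cell markers were set beside these receptors. Of 10 tested, 6 were called higher in H24/NC (median 4.04), 2 of 6 in H8/NC (1.44) and 7 of 10 in H24/H8 (2.85). Markers tested in H24/NC but not in H8/NC reached the minimum level through the H24 libraries. The sum over the list was 1.86 to 2.34 FPKM in NC, 1.81 to 3.34 in H8 and 9.02, 21.0 and 34.0 in H24 replicates 1 to 3. CD3E alone gave 15.8 of the 21.0 FPKM in H24 replicate 2, where CD28 and CTLA4 were at 0 and ICOS at 0.0569 FPKM. CD4, the co-receptor of helper T cells, had a log2 fold change of 7.28 (SE 1.41, adjusted p = 0.132) in H24/NC, and IL7R, the receptor for interleukin 7, had 5.52 (SE 1.19, adjusted p = 0.132). Tested but not called in H24/NC were CD3G, CD247, FOXP3 and IL2RA, named after their values were seen. CD247, another chain of the T cell receptor complex, measured 1.28, 1.61 and 1.39 FPKM in NC. It measured 1.66, 1.89 and 1.77 FPKM in H24 (0.28, SE 0.28, edgeR adjusted p = 0.705). No T cell marker was at 0 in all controls. The part of T cell number in the values of CD28, CTLA4 and ICOS was not tested.

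CD3E, a chain of the T cell receptor complex and the denominator chosen for the T cell side, did not follow CD2, CD3D or CD3G across the H24 libraries. It measured 0.110, 0.133 and 0.0465 FPKM in NC and 1.22, 15.8 and 4.98 FPKM in H24. In H24 replicate 2, where it was highest, CD28 and CTLA4 were at 0, CD2 at 0.532 FPKM, and the partner chains CD3D and CD3G, named after their values were seen, at 0.267 and 0.374 FPKM. The gene overlaps CD3D on the opposite strand. The log2 ratios of CD28, CTLA4 and ICOS to CD3E overlapped in all 3 comparisons, with values of -10.62, -10.62 and -7.88 in H24 replicate 2, and CTLA4/CD28 and ICOS/CD28 overlapped too.

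With CD2, an adhesion receptor of T cells, in place of CD3E, ICOS had log2 ratios of -2.37, -3.02 and -3.50 in H24, beside -2.25, -2.51 and -3.58 in NC and -4.68, -3.25 and -3.88 in H8. CTLA4/CD2 was -1.84 in H24 replicate 3 and -5.76 to -2.51 in the other 8 libraries. CTLA4 was thus highest per CD2 in the library in which it was highest in FPKM. Where a gene had 0 counts these ratios rest on the pseudocount of 0.01 FPKM.

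**Figure D4:**
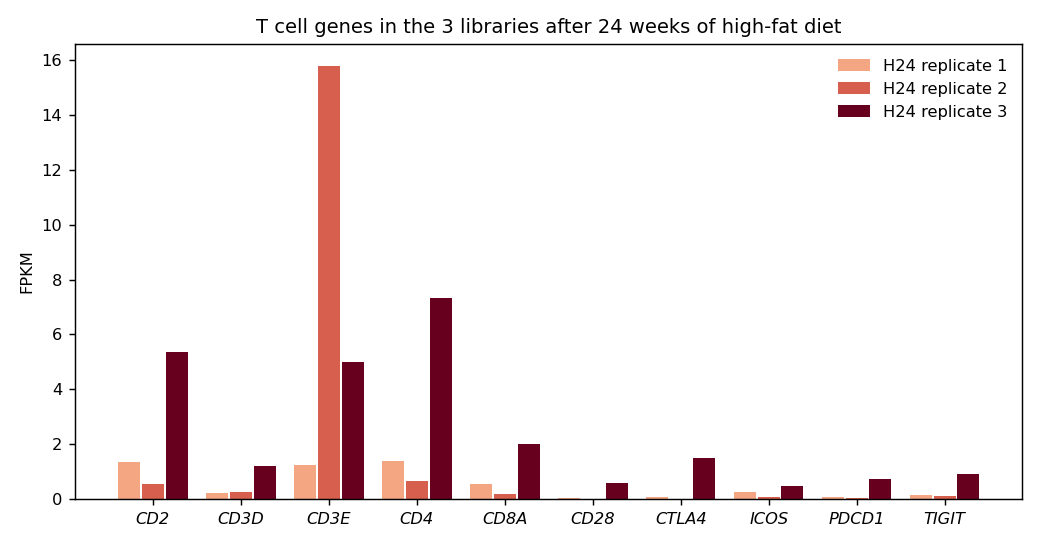
FPKM (vertical axis, bars from 0) of 10 T cell genes in the 3 H24 libraries, 1 bar per library. Replicate 3 has the highest bar for each gene except CD3E, where replicate 2 reaches 15.8 FPKM while its CD28 and CTLA4 are at 0; CD8A, CD3D and TIGIT were added after their values were seen.

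Of 9 other inhibitory and co-stimulatory T cell receptors tested, 8 were called higher in H24/NC (median 4.46), 3 of 4 in H8/NC (2.47) and 5 of 9 in H24/H8 (3.16). Those not tested in H8/NC passed the minimum level in H24/NC only through the H24 libraries, so the count there is partly set by the filter. HAVCR2, the checkpoint receptor TIM-3 that myeloid cells also carry, measured 0.402, 0.474 and 0.347 FPKM in NC, 4.78, 0.467 and 2.48 FPKM in H8, and 8.14, 2.11 and 32.5 FPKM in H24. Its H24/NC log2 fold change was 5.10 (SE 0.99, adjusted p = 0.132). Like CD86 and PDCD1LG2, it was near the controls in H8 replicate 2. CD5, which dampens T cell receptor signals, had 5.84 (SE 1.15, adjusted p = 0.132) and CD2 had 4.46 (SE 0.99, adjusted p = 0.134).

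Of the TNF superfamily co-stimulators 8 of 10 were called higher in H24/NC (median 4.09), 1 of 4 in H8/NC (1.71) and 6 of 11 in H24/H8 (2.86). Here too the genes missing from H8/NC passed the minimum level in H24/NC through the H24 libraries. TNFRSF1B, the second TNF receptor, measured 15.8, 26.9 and 18.4 FPKM in NC and 63.4, 62.4 and 150 FPKM in H24 (log2 fold change 2.15, SE 0.45, adjusted p = 0.132). TNFSF18, the ligand of the receptor GITR, was at 0 in all controls and at 0.377, 0.561 and 2.91 FPKM in H24. TNFRSF4, the receptor OX40, had 4.09 (SE 1.36, adjusted p = 0.266), and TNFSF8, the ligand of CD30, had 6.21 (SE 1.94, adjusted p = 0.240).

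Of the CD28 signalling genes 8 of 13 were called higher in H24/NC (median 2.29), 2 of 11 in H8/NC (0.44) and 9 of 14 in H24/H8 (1.84). ZAP70, the kinase that the T cell receptor recruits, measured 0.0443, 0.0589 and 0.0511 FPKM in NC, 0.0556, 0.0661 and 0.0764 FPKM in H8, and 1.04, 0.691 and 3.48 FPKM in H24 (H24/NC 4.94, SE 0.78, adjusted p = 0.132). VAV1 (5.19, SE 0.99, adjusted p = 0.132) and LCP2 (5.04, SE 1.06, adjusted p = 0.132), which macrophages also express, and the kinase LCK (2.81, SE 0.69, adjusted p = 0.150) were called as well in H24/NC. None of these lists had a gene called lower in any of the 3 comparisons.

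No gene of 4 tested in the rest of the B7 family was called in any comparison, with medians of 0.52 in H24/NC, -0.41 in H8/NC and 0.81 in H24/H8. VSIR, the inhibitory ligand VISTA, measured 88.1, 50.2 and 69.7 FPKM in NC and 64.1, 65.2 and 51.8 FPKM in H24 (log2 fold change -0.21, SE 0.25, adjusted p = 0.756). CD276 (B7-H3) had 0.13 (SE 0.24, adjusted p = 0.853), VTCN1 (B7-H4) 0.90 (SE 1.33, adjusted p = 0.815) and BTN2A2, a butyrophilin, 1.06 (SE 0.48, adjusted p = 0.395). VSIR was thus listed at more FPKM in every NC library than any of the 9 genes in any NC library. The ligand of ICOS, ICOSLG, was not analysed here.

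B cells can present antigen through CD80, CD86 and CD40. Of their markers 2 of 4 tested were called higher in H24/NC (CD22 and BLK), 0 of 3 in H8/NC and 3 of 3 in H24/H8, and the sum was 5.26 to 6.33 FPKM in NC, 1.65 to 4.52 in H8 and 10.4 to 20.9 in H24. The defining marker MS4A1 (CD20) was at 0 in all controls and at 0, 0.0354 and 0.190 FPKM in H24. Of the lymphoid tissue stroma markers 2 of 3 tested were called higher in H24/NC and none in H8/NC or H24/H8, with sums of 74.2 to 96.7 FPKM in NC, 53.7 to 93.1 in H8 and 72.2 to 102 in H24.

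By mean FPKM the order in NC was CD40 (3.38), CD80 (1.89), CD83 (1.87), CD274 (0.889), CD86 (0.402) and PDCD1LG2 (0.241), then CD28, ICOS and CTLA4. CD83 and CD274, CD274 and CD86, and PDCD1LG2 and CD28 were neighbours in that order whose libraries did not overlap. In H8 CD83 (11.4) and CD40 (3.22) stood apart at the top, and CD80, CD86, PDCD1LG2 and CD274 followed between 1.33 and 1.06 with overlap, above ICOS, CD28 and CTLA4. In H24 the order was CD83 (21.2), PDCD1LG2 (8.53), CD40 (6.57), CD86 (4.40), CD80 (2.82), CD274 (1.19), CTLA4, ICOS and CD28, and no neighbours were separate.

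Likeness of pattern was measured as the mean absolute difference, over the 9 libraries, between log2(FPKM + 0.1) values centred on each gene's own mean, among 10192 named genes. The closest to CD86 was LAPTM5, a lysosomal membrane protein of blood cells, at 0.0878, followed by RPS6KA1 (0.216) and ADORA3 (0.232). For PDCD1LG2 they were ARHGAP30 (0.137), GMFG (0.153) and BTK (0.194), and those near CD83 included GIMAP6 (0.374) and complement C3 (0.425). For CD40 they were CH25H, which makes 25-hydroxycholesterol (0.156), IL17RA (0.189) and CASP8 (0.202). CD80 was closest to ZMYM6 (0.168), CD274 to SPINT2 (0.207) and CTLA4 to ATP6V0C (0.188). CD28 and ICOS were under 0.1 FPKM in mean and were not matched. Between members the smallest distances were 0.342 for CD28 and ICOS, 0.350 for CD28 and CTLA4, and 0.442 for CD40 and ICOS, followed by 0.449 for CD86 and PDCD1LG2. With 0.1 FPKM added, libraries near 0 take almost the same value. Distances that involve CD28, CTLA4 or ICOS therefore rest partly on their low level and are not read as a shared pattern. All of these describe the same 9 libraries, of which H24 replicate 3 is far from the rest.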

How the data were processed

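Abdominal aorta libraries of NC, H8 and H24 pigs (3 each) were grouped by the sample labels. Mapping by the authors was to Sscrofa11.1 with HISAT 2.0, and the FPKM they deposited came from StringTie 1.3.0. Estimated counts were deposited beside them as whole numbers with no depth normalization, and how the authors derived these is not given in the sources used here. The submitters' processing notes also list Bowtie 0.12.2 and a mouse build, with no role given. All 21357 genes were read, and 0 per-sample columns were left unmapped.

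Counts were rounded and fitted with edgeR 4.0.16 in R 4.3.3 (TMM, quasi-likelihood, two-sided) in each pair of groups over genes at or above 0.1 mean FPKM, and Benjamini-Hochberg adjustment ran over all of them. DESeq2 1.42.0 and limma 3.58.1 were alternatives, and the fit was checked on simulated data. Ratios were log2 of (FPKM + 0.01) values with exact permutation tests. Replicates are separate pigs. Their numbers were checked for pairing across groups: correlations of same-numbered deviations were -0.096 to 0.098, none over 0.1, so they were not used as pairs.

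Members and lists were chosen with earlier results of these data known. Named genes are the 9 members, up to 4 genes of each of 14 lists with the smallest p in H24/NC, up to 3 genes most like each member (1 is not reported here), and tissue checks; a name with several entries was read from the one with the highest mean FPKM, and others are said to be named after their values were seen. Of 133 list entries beside the members, 121 are in the table. Floors cover counting error only. Each SE of a log2 fold change is its size divided by the square root of the edgeR quasi-likelihood F, so it also carries variation between pigs.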

Additional observations from a re-analysis of the deposited data

How the results depend on the processing

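Single H24 and H8 libraries and the low counts of CD28, CTLA4 and ICOS limit these results. By DESeq2 the adjusted rule called 5 members in H24/NC, 3 in H8/NC and 1 in H24/H8. By limma on log2(FPKM + 0.1) it called 1 in H24/NC, beside 9 of 14828 tested genes, where edgeR called 0. A filter at a mean FPKM of 1, which drops low genes, gave 3 of 6 tested members called in H24/NC and 1 of 3 in H8/NC, in place of 5 and 3. Beside them 1079 of 11346 and 440 of 10903 tested genes were called higher. Limma on log2(FPKM + 1) gave 3, 1 and 1, beside 714 of 14828, 202 of 14336 and 517 of 14788 tested genes. Limma on log2(FPKM + 0.1) gave 1 in H24/H8, beside 1076 of 14788. With no filter and without H24 replicate 3, an alternative chosen after seeing the data, 3 passed the adjusted rule in H24/NC, beside 340 of 17978 tested genes. In H24/H8, 1 member (ICOS) was called in that setting, and the share of all genes is not given here. Ratios without overlap numbered 8 in H24/NC and 3 in H24/H8 with a pseudocount of 0.1 FPKM, and 5 in H24/H8 with TYROBP, in place of 5, 0 and 0.

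Leaving out 1 library at a time gave 3 (without H24 replicate 3) to 6 called in H24/NC, 3 to 3 in H8/NC and 0 (without H24 replicate 3) to 6 (without H24 replicate 2) in H24/H8. The 6 in H24/NC, without H24 replicate 2, stood beside 1795 of 14775 tested genes. By the adjusted rule it gave 0 to 3 in H24/NC and 0 in the others. Members without overlap ranged from 5 to 8 in H24/NC, 3 to 4 in H8/NC and 3 to 7 in H24/H8, and ratios from 5 to 8 (8 without H24 replicate 2 or 3), 5 to 7 and 0 to 5 (5 without H24 replicate 2).

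CD40 in H8/NC turned to -0.00298 and -0.0143 under limma with 0.1 and 1, to -0.0791 by library size, -0.20 without NC replicate 1 and -0.09 without H8 replicate 2, and leaving out 1 library ranged up to 0.25. CD274 in H24/H8 turned to 0.00631 with the filter at 1, 0.0181 with all 9 libraries, 0.17 and 0.0907 under limma, 0.19 by library size, and 0.23 with no filter and without H24 replicate 3. Leaving out H8 replicate 1, H24 replicate 2 or H24 replicate 3 gave 0.48, 0.12 and 0.22, and the lowest value with 1 library left out was -0.53. With 1 library left out it ranged from -0.12 (without H24 replicate 1) to 0.62 in H24/NC and from -0.13 (without H8 replicate 1) to 0.70 in H8/NC. The cause was not tested.

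The replicate block left 5, 3 and 3 members called in H24/NC, H8/NC and H24/H8, beside 1114 of 14828, 639 of 14336 and 800 of 14788 tested genes. It left 0 by the adjusted rule, and turned CD274 in H24/H8 to 0.0109. Scaling by library size moved the median of all genes to -0.13 in H8/NC (576 called higher and 459 lower, against 733 and 326) and to 0.24 in H24/H8 (1447 and 290, against 1068 and 451). Limma on log2(FPKM + 0.1) gave 454 and 505 in H8/NC. Apart from replicates left out, 187 fold changes of members kept direction and call, 9 lost the call, 2 gained it and 9 turned.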
